A study of Mus musculus with 8 samples.

Results

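Replicate 2 was compared with replicate 1 within each of 4 mouse pro-B cell lines, as the difference in log2(FPKM + 1) between the libraries of a line. FPKM are fragments counted relative to transcript length and to all mapped fragments. Of 10479 genes tested, 4739 (45.2%) differed with the same sign in all 4 lines, 2737 of them higher in replicate 2 and 2002 lower. These 4739 genes are described here, and the sign is what chose them, so the count is not a finding. No agent, dose or time separates the libraries of a line: the labels give only the replicate number, do not say what it marks, and do not say that the libraries came from separate cultures. The p-values therefore measure the spread between these libraries, which may be technical.

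All 8 libraries are poly(A) RNA-seq of pro-B lines from 129SV bone marrow, grown untreated in serum-containing medium. Pro-B cells are the B cell precursors that assemble the immunoglobulin heavy chain (IgH) locus. The lines are WT (wild type), CBE line 1 and CBE line 2 (genotype IGCR1-/-, the intergenic control region 1 of the IgH locus) and an Eµ-deleted line (genotype Eµ-/-, the intronic IgH enhancer). There are 2 libraries of each line, and WT and Eµ-/- are 1 line each, so that genotype and line cannot be told apart there. A difference taken within a line sets each library against the same line. Pairs of values below are FPKM of replicate 1 against replicate 2.

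Cultured lymphoid cells carry several gene programmes that follow their nutrient and growth state. In the integrated stress response, kinases that sense amino acid shortage, endoplasmic reticulum (ER) stress or haem shortage phosphorylate the initiation factor eIF2, which favours translation of the transcription factor ATF4. ATF4 and its partners then switch on genes of amino acid uptake and synthesis, tRNA charging and the CHOP branch. Cholesterol synthesis is set by SREBP2, a membrane-bound factor that is released when sterols are low, and immediate early genes answer growth factor signalling through ERK.

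Several of the stress response genes carry the ATF4 composite element in their promoters, and 5 of these promoters are shown because their genes hold some of the largest differences between replicates and an exception to their direction. The element was searched as TGATGNAA on both strands, from 250 bases before to 50 bases after the annotated start. TGATGNAA was found in 12 of the 32 measured members of the ATF4 list that have a promoter entry (37.5%), against 2.71% of 7860 tested genes with an entry and 4.51% of 27025 genes with an entry in all. The sequences are RefSeq's (GRCm38.p6, the 250 bases before the start, written 5′ to 3′ along the gene's strand), were matched by gene symbol, and have every match in capitals. A match describes letters and is not a binding site. The list was drawn from known ATF4 targets, so its share of matches describes the list and not these libraries.
Nupr1, chr7:126625471-126625720, minus strand: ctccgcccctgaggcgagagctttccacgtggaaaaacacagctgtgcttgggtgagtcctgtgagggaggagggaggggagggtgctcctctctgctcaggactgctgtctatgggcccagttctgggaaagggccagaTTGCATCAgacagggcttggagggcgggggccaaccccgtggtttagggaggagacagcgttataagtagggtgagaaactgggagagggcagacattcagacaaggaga
Chac1, chr2:119350992-119351241, plus strand: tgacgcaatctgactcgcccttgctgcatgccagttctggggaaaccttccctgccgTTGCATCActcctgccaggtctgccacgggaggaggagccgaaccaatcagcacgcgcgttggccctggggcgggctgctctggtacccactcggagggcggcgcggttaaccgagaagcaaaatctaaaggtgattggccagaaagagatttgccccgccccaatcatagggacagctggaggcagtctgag
Pycr1, chr11:120643749-120643998, minus strand: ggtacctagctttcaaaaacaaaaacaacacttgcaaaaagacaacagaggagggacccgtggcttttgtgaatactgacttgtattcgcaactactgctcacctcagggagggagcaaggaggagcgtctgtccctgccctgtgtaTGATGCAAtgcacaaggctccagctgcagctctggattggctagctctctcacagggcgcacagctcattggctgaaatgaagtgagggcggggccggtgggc
Asns, chr6:7693210-7693459, minus strand: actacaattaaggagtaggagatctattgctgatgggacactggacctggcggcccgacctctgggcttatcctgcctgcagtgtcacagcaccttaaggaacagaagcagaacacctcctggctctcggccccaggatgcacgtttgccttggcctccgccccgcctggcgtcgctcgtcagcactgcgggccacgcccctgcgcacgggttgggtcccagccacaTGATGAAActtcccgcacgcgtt
Slc7a11, chr3:50443614-50443863, minus strand: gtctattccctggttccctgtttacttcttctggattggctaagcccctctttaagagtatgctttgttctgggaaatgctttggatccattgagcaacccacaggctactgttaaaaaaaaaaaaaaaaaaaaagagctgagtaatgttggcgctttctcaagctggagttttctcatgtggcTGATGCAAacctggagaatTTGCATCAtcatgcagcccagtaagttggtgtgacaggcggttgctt
The match starts 110 bases before the start in Nupr1, 193 in Chac1, 103 in Pycr1 and 23 in Asns, and Slc7a11 has 2 matches, at 66 and 47 bases.

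The shared difference was spread over many genes and small in most of them. No gene passed an adjusted p of 0.05 in limma, in either direction (0 higher and 0 lower of 10479, 0.0%), and the smallest adjusted p, 0.0765, was shared by 530 genes. At an unadjusted p under 0.05 there were 3274 genes (31.2%), 1916 higher and 1358 lower in replicate 2, where 5% of the genes would be 524. With an adjusted p under 0.10, a threshold chosen after seeing the data, limma listed 988 genes as higher (9.43%) and 759 as lower (7.24%), 1738 of these 1747 with the same sign in all 4 lines. That count rests on all 4 pairs: it was 0 without the WT pair, 0 without the Eµ-deleted pair, 2 higher and 1 lower without CBE line 1, and 4 and 4 without CBE line 2. Since no gene passed at 0.05, genes below are given with their values and called higher or lower, not changed.

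Most members differed little in at least 1 line. The median over the 4739 genes of the smallest of the 4 differences was 0.074 in size, and the mean difference reached 1 in 31 of them and -1 in 7. All 4 differences were at least 0.25 in 208 genes that were higher and 116 that were lower, at least 0.5 in 29 and 6, and at least 1 in 3 and 2. Genes with the same sign in 4 lines made up 26.1% higher and 19.1% lower of all tested, so counts below are read beside these shares. The shares depend on level: in the quintile of highest mean FPKM, 16.7% were higher and 38.8% lower. Lists of highly expressed genes are to be read beside the latter, and the part of level in their differences was not tested. The higher members were 57.8% of the 4739, but 48% after quantile normalization, 51.6% with median-of-ratios scaling and 64.3% in TPM.

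The lines did not contribute equally. The SD over genes of the difference was 0.408 for CBE line 1 and 0.402 for Eµ-deleted cells, against 0.259 in WT and 0.258 in CBE line 2. A difference of 1 or more was seen in 163 genes of CBE line 1 and 127 of the Eµ-deleted line, and in 18 of WT and 37 of CBE line 2. Across the 10479 genes, the correlation of the differences between pairs of lines lay between 0.28 and 0.50 (Pearson's r, highest between CBE line 1 and the Eµ-deleted line) and between 0.39 and 0.61 (Spearman's rho, highest between WT and CBE line 2). Genes are not independent replicates, and these values are descriptions. Of the total sum of squares over genes, 82.3% lay between lines, 9.0% followed the replicate number and 8.71% remained, and in 1679 genes the replicate number held more than the line.

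Depth and cell markers were set beside the contrast. Implied reads come from the width of the deposited intervals and are not read counts, so they are a rough guide to depth. The reads implied by the deposited intervals averaged 40.2 M in replicate 1 and 33.2 M in replicate 2, and replicate 1 was the deeper library in WT, CBE line 1 and the Eµ-deleted line (exact paired permutation p = 0.375, two-sided; the smallest p that 4 pairs allow is 0.13). The 20 genes with most FPKM took 14.4% of the total in replicate 1 and 15.1% in replicate 2 on average, more in replicate 2 of 4 of 4 lines (exact permutation p = 0.13, two-sided, the smallest possible). Of 12 pro-B markers, 10 were at 1 FPKM or more in every library; the exceptions were Rag1 and Rag2, at 0.0427 FPKM or less in both WT libraries. Summed FPKM of 6 T cell markers, nearly all from Lck, ran from 28.0 to 82.2 in replicate 1 and from 17.0 to 66.4 in replicate 2, lower in replicate 2 of 4 of 4 lines. Of 5 myeloid markers, summed FPKM were 2.42 to 8.85 and 1.61 to 3.79, also lower in replicate 2 of each line, and the erythroid, NK and stromal sums were 0.367 or less in every library. The part of depth and of these markers in the differences below was not tested.

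Targets of the integrated stress response were mostly higher in replicate 2. Of 38 measured members, 28 were higher in replicate 2 of all 4 lines and 1 was lower, against 26.1% and 19.1% of all genes. Their median difference was 0.78, beside 0.04 over all genes tested, and 13 were higher and 1 lower at an adjusted p under 0.10 in limma. By line the median was 1.75 for CBE line 1 and 0.40, 0.45 and 0.49 for WT, Eµ-deleted cells and CBE line 2, and without the CBE line 1 pair it was 0.39. The deposited intervals of both libraries were apart in the same direction in all 4 lines for 26 members that were higher and 1 that was lower, against 7.52% and 6.81% of the 10429 genes at 1 locus. In 8 members every replicate 2 value lay above every replicate 1 value (3.63% of all genes). In bulk RNA, a change in the share of cells that express a gene and a change in RNA per cell cannot be told apart.

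Among genes of the CHOP branch, Ddit3, Trib3 and Chac1 were higher in each line. Ppp1r15a, a further stress response gene of the list, was of mixed sign, with -0.42 in CBE line 1 (mean 0.10, limma adjusted p = 0.629). Ddit3 (mm9 chr10:126727849-126733344), which encodes CHOP, a transcription factor of prolonged stress, was at 28.4 against 79.0 FPKM for WT, 11.1 against 62.6 for CBE line 1, 16.8 against 48.3 for CBE line 2, and 43.2 against 194 for Eµ-deleted cells. Every replicate 2 value lay above every replicate 1 value. Its mean difference was 1.86 (SE 0.17, higher in 4 of 4 lines, limma adjusted p = 0.0765), and 1.69 to 2.0 when any 1 pair was left out. Trib3, a pseudokinase induced downstream of CHOP, was at 34.7 against 49.4 FPKM for WT, 2.41 against 48.7 for CBE line 1, 15 against 28.0 for CBE line 2, and 38.9 against 82.8 for Eµ-deleted cells. Its first CBE line 1 library was far below the other 7, and the mean difference of 1.57 (SE 0.54, limma adjusted p = 0.12) was 0.81 without that pair. Chac1, a glutathione-degrading enzyme of the same branch, went with it, at 2.94 against 95.9 FPKM in CBE line 1 and 17.3 against 26.7 in WT (mean difference 1.92, or 1.02 without CBE line 1; limma adjusted p = 0.113).

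Among stress-induced transcription regulators, Nupr1 (mm9 chr7:133766760-133768984), a small chromatin-associated stress protein, was at 78.2 against 144 FPKM for WT, 14.3 against 279 for CBE line 1, 26.8 against 78.3 for CBE line 2, and 122 against 389 for Eµ-deleted cells. Replicate 2 was the higher library of each line, but the ranges of the replicates overlapped across lines. The mean difference was 2.06 (SE 0.51, limma adjusted p = 0.079), and 1.35 without CBE line 1. Atf5, an ATF4 relative, differed by 1.78 (SE 0.35) and Cebpg, a dimer partner of ATF4, by 0.83 (SE 0.088), both at the lowest adjusted p. Atf4 itself was at 488 against 492 FPKM for WT, 302 against 486 for CBE line 1, 343 against 361 for CBE line 2, and 548 against 445 for Eµ-deleted cells. Its RNA was lower in replicate 2 of the Eµ-deleted line and differed little in WT and CBE line 2, with a mean of 0.12 (SE 0.15, limma adjusted p = 0.608) that was -0.07 without CBE line 1. As background, ATF4 is controlled largely in translation, which these RNA values do not measure.

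Amino acid transporter genes of the list were higher, with 1 exception. Slc7a3, a cationic amino acid transporter, was at 9.96 against 25.0 FPKM for WT, 0.812 against 9.14 for CBE line 1, 1.34 against 4.76 for CBE line 2, and 6.94 against 21.2 for Eµ-deleted cells. Each line had 1.24 or more on the log2 scale (mean 1.63, SE 0.21, limma adjusted p = 0.0765). The glycine transporter gene Slc6a9 differed by 1.73, the heavy chain Slc3a2 by 0.86, its large neutral amino acid partner Slc7a5 by 0.92 and the glutamine transporter gene Slc1a5 by 0.58, all higher in 4 of 4 lines. Without CBE line 1 these means were 1.12, 0.54, 0.46 and 0.41. Slc7a11 (mm9 chr3:50168858-50247535), the cystine-glutamate exchanger and a shared target of ATF4 and NRF2, was the exception, at 9.73 against 6.66 FPKM for WT, 12.7 against 7.50 for CBE line 1, 9.66 against 7.33 for CBE line 2, and 11.3 against 4.03 for Eµ-deleted cells. All 4 replicate 2 values lay below all 4 replicate 1 values (mean -0.70, SE 0.15, limma adjusted p = 0.0765). Its promoter, shown above, holds 2 matches to the element.

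Among amino acid synthesis enzymes the differences were widest in CBE line 1. Asns, asparagine synthetase, was at 110 against 139 FPKM for WT, 49 against 304 for CBE line 1, 184 against 275 for CBE line 2, and 271 against 313 for Eµ-deleted cells. The difference was 2.61 in CBE line 1 and 0.21 to 0.57 in the other lines, with a mean of 0.93 (SE 0.40, limma adjusted p = 0.17) that was 0.37 without CBE line 1. Pycr1, a proline synthesis enzyme, differed by 1.17 (limma adjusted p = 0.0782), Cth, a cysteine synthesis enzyme, by 1.53 (0.128) and Mthfd2, a mitochondrial folate enzyme, by 0.72 (0.119). Without CBE line 1 these were 0.77, 0.75 and 0.38. Serine synthesis genes were of mixed sign: Phgdh, Psat1 and Psph were higher in replicate 2 of WT and both CBE lines and lower by 0.33 to 0.34 in the Eµ-deleted line. The aminoacyl-tRNA synthetases, which charge tRNAs, had 8 of 20 members higher and 4 lower in all 4 lines, with a median of 0.26, or 0.08 without CBE line 1. Sars, the seryl-tRNA synthetase gene, was at 40.9 against 108 FPKM in CBE line 1 and differed by 0.25 to 0.37 in the other lines, whereas Farsa, a subunit of the phenylalanyl enzyme, was lower in each line (mean -0.32, limma adjusted p = 0.0765).

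**Figure D1:**
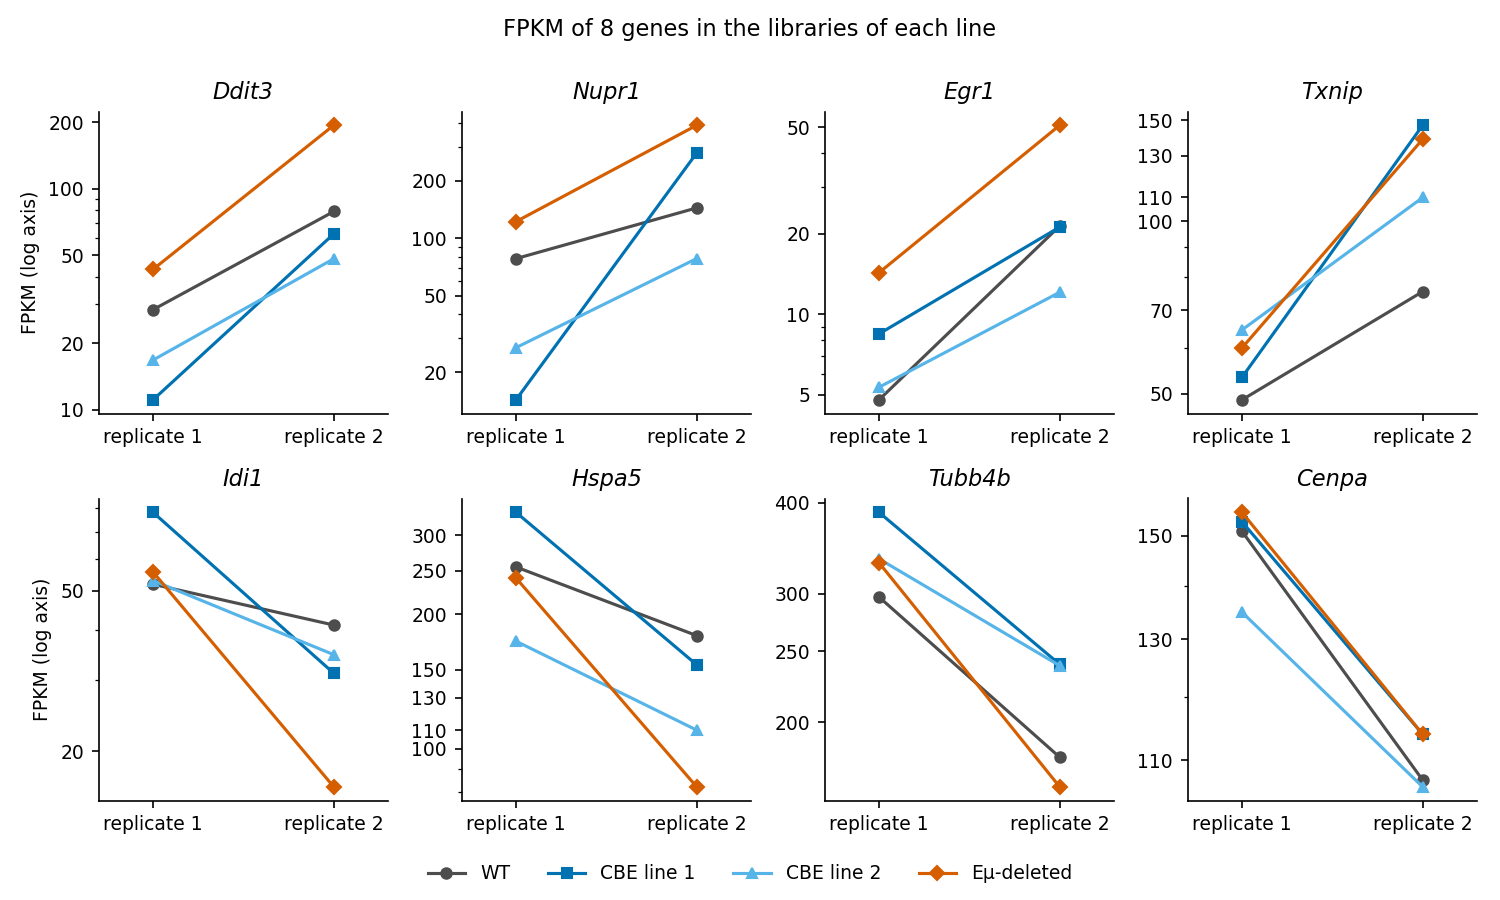
FPKM (log axis, scaled per gene) of 8 genes in replicates 1 and 2, with a line joining the libraries of each cell line. The upper 4 genes were higher and the lower 4 lower in replicate 2 of every line; Ddit3 went from 11.1 to 43.2 FPKM in replicate 1 to 48.3 to 194 in replicate 2.

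By library, CBE line 1 replicate 1 was the lowest of the 8 libraries for 30 of the 38 stress response genes, against 16.8% of all genes tested. Relative to each gene's mean over the 8 libraries, the list had a median of -1.29 in that library, and -0.28 to 0.18 in the other replicate 1 libraries. In replicate 2 it was 0.38 for both WT and CBE line 1, 0.17 for CBE line 2 and 0.67 for Eµ-deleted cells, so the second library of CBE line 1 lay among the other second libraries. The median SD over lines was 0.74 among the replicate 1 libraries and 0.32 among the replicate 2 libraries.

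**Figure D2:**
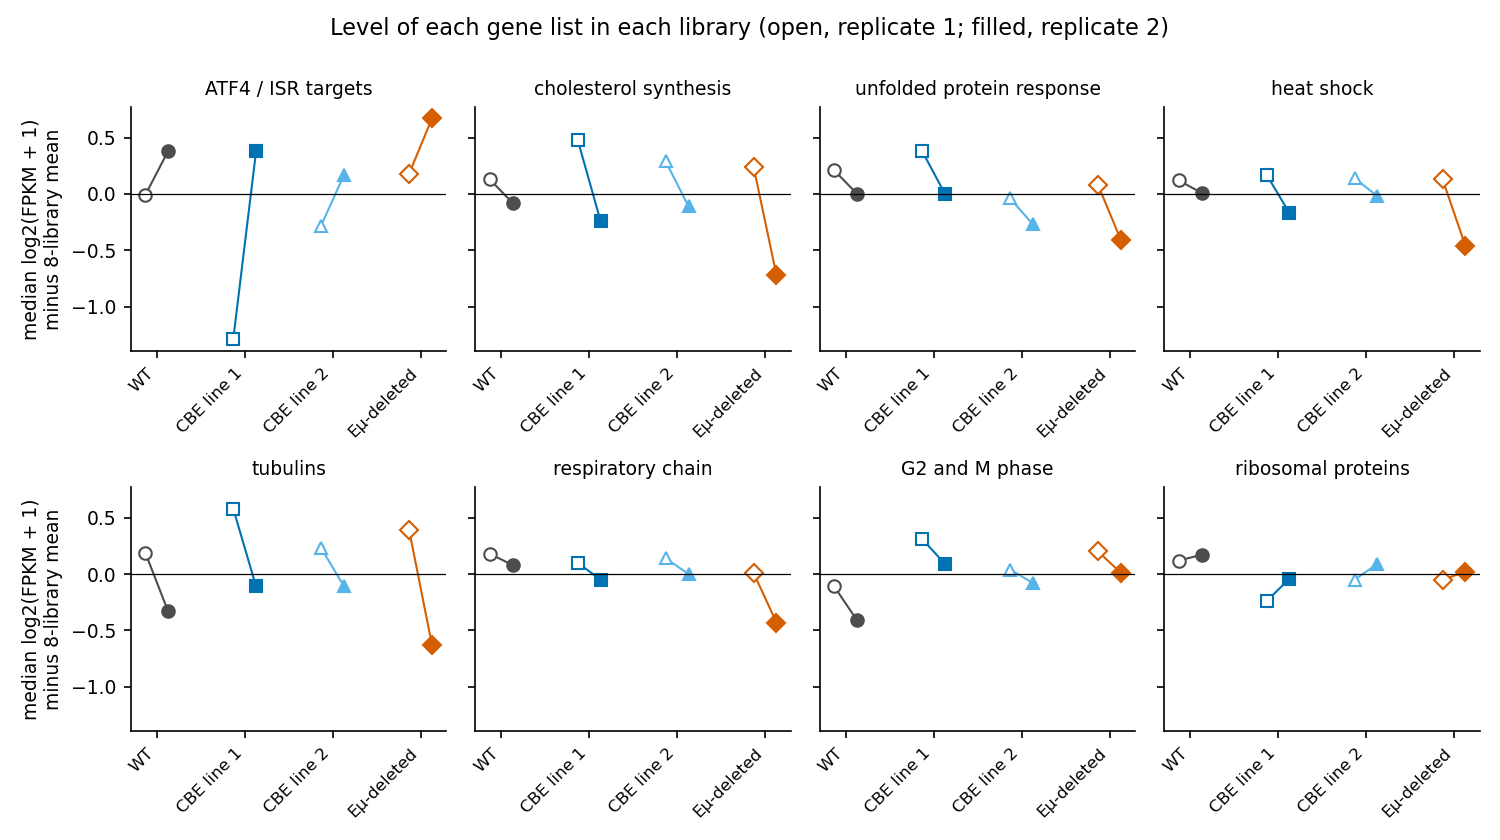
Median over the genes of a list of log2(FPKM + 1) minus the gene's mean over the 8 libraries, with 1 open symbol for replicate 1 and 1 filled symbol for replicate 2 of each line. The stress response list is at -1.29 in the first library of CBE line 1, and the cholesterol list is lowest, at -0.72, in the second library of the Eµ-deleted line.

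ER chaperone genes were mostly lower in replicate 2, and why they differ in direction from Ddit3 was not tested. Of 23 measured genes of the unfolded protein response, 13 were lower and 3 higher in replicate 2 of all 4 lines, and 11 were lower at an adjusted p under 0.10 in limma (7.24% of all genes). Hspa5 (mm9 chr2:34627610-34632049), the ER chaperone BiP, was at 255 against 179 FPKM for WT, 338 against 154 for CBE line 1, 174 against 110 for CBE line 2, and 241 against 82.1 for Eµ-deleted cells. It was lower in each line, most in the Eµ-deleted line (mean -0.96, SE 0.17, limma adjusted p = 0.0765). Calr, calreticulin, differed by -0.89, the disulfide isomerase gene Pdia6 by -0.77 and Hsp90b1, the ER form of HSP90, by -0.66. Among the transcription regulators of the pathway, Atf6 was higher in each line (mean 0.52, SE 0.11, limma adjusted p = 0.0765), and Xbp1 differed by 0.10 with mixed signs. Ern1, of the same list, was higher in each line (mean 0.39, limma adjusted p = 0.108). Herpud1, which was counted in the stress response list, was higher in each line too (mean 0.60, limma adjusted p = 0.0951). The list's median was -0.29, and -0.15 without the Eµ-deleted pair or -0.19 after quantile normalization.

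Cytosolic chaperones were lower too. In the heat shock list, 10 of 16 members were lower and 2 higher in replicate 2 of 4 lines, with a median of -0.32, or -0.21 without the Eµ-deleted pair and after quantile normalization. Hspa8, the constitutive HSC70, was at 728 against 558 FPKM for WT, 1160 against 493 for CBE line 1, 809 against 724 for CBE line 2, and 960 against 357 for Eµ-deleted cells. All first libraries were above all second ones, by little for WT replicate 1 and CBE line 2 replicate 2 (mean -0.80, SE 0.22, limma adjusted p = 0.0878). Hsp90aa1 differed by -0.65 (SE 0.12) and Hsph1, an HSP110 chaperone, by -0.73 (SE 0.17). The inducible Hspa1a was below the expression filter, at 0.486 FPKM or less in every library, and Hsf1, the factor that drives heat shock genes, was higher by 0.14 (limma adjusted p = 0.2).

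Redox genes were lower in part. In the NRF2 list, 9 of 17 were lower and 1 higher in all 4 lines, with a median of -0.06. Of all genes 19.1% were lower, and in the quintile of highest mean FPKM 38.8%, with a median of -0.07. The 7 members of mixed sign included Fth1, Gclc, Nfe2l2, Keap1 and Prdx6. The lower ones included Taldo1 and Tkt of the pentose phosphate pathway (-0.46 and -0.53), the peroxiredoxin gene Prdx1 (-0.62) and the thioredoxin reductase gene Txnrd1 (-0.31). Hmox1, the haem oxygenase of this response, was at 5.07 FPKM or less in every library and of mixed sign. Outside the lists, Gpx1, a glutathione peroxidase, was at 380 against 269 FPKM for WT, 405 against 194 for CBE line 1, 264 against 164 for CBE line 2, and 342 against 205 for Eµ-deleted cells. The second library of each line was the lower one (mean -0.74, SE 0.10), and Ptgr1, a prostaglandin reductase, was lower by 0.61 to 0.94 in each line (mean -0.77, SE 0.067, limma adjusted p = 0.0765).

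Cholesterol synthesis genes, the targets of SREBP2, were lower in replicate 2. Of 23 measured genes, 19 were lower and 0 higher in replicate 2 of all 4 lines, 17 were lower at an adjusted p under 0.10 in limma, and in 14 every replicate 2 value was below every replicate 1 value, against 3.49% of all genes. The median was -0.58, with -0.21 for WT, -0.33 for CBE line 2, -0.79 for CBE line 1 and -0.98 for Eµ-deleted cells, and it stayed between -0.69 and -0.44 under every alternative run.

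The lower enzymes span the pathway from its first steps to sterols. Hmgcs1, the synthase at its start, differed by -0.92. Idi1 (mm9 chr13:8884852-8891642), the isomerase of isoprenoid units, was at 51.9 against 41.1 FPKM for WT, 78.3 against 31.2 for CBE line 1, 53 against 34.7 for CBE line 2, and 55.7 against 16.3 for Eµ-deleted cells (mean -0.99, SE 0.23, limma adjusted p = 0.0778). Its second libraries were all below the first. Fdps, farnesyl diphosphate synthase, differed by -0.90, Lss, lanosterol synthase, by -0.75, and Insig1, which retains SREBP2 in the ER, by -0.52. Srebf2, the gene of SREBP2 itself, was lower in each line by a smaller amount (mean -0.22, limma adjusted p = 0.122). The 4 genes of mixed sign were Ebp, Sc5d, Cyp51 and Tm7sf2, all enzymes of the last steps. The second library of the Eµ-deleted line was the lowest of 8 for 22 of the 23 genes, against 19.7% of all genes. In fatty acid synthesis, 6 of 11 genes were lower and 1 higher in all 4 lines (median -0.26, or -0.15 without the Eµ-deleted pair and -0.16 after quantile normalization), with Acly, Acaca, Elovl6 and Fads2 at -0.46, -0.30, -0.45 and -0.45.

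**Figure D3:**
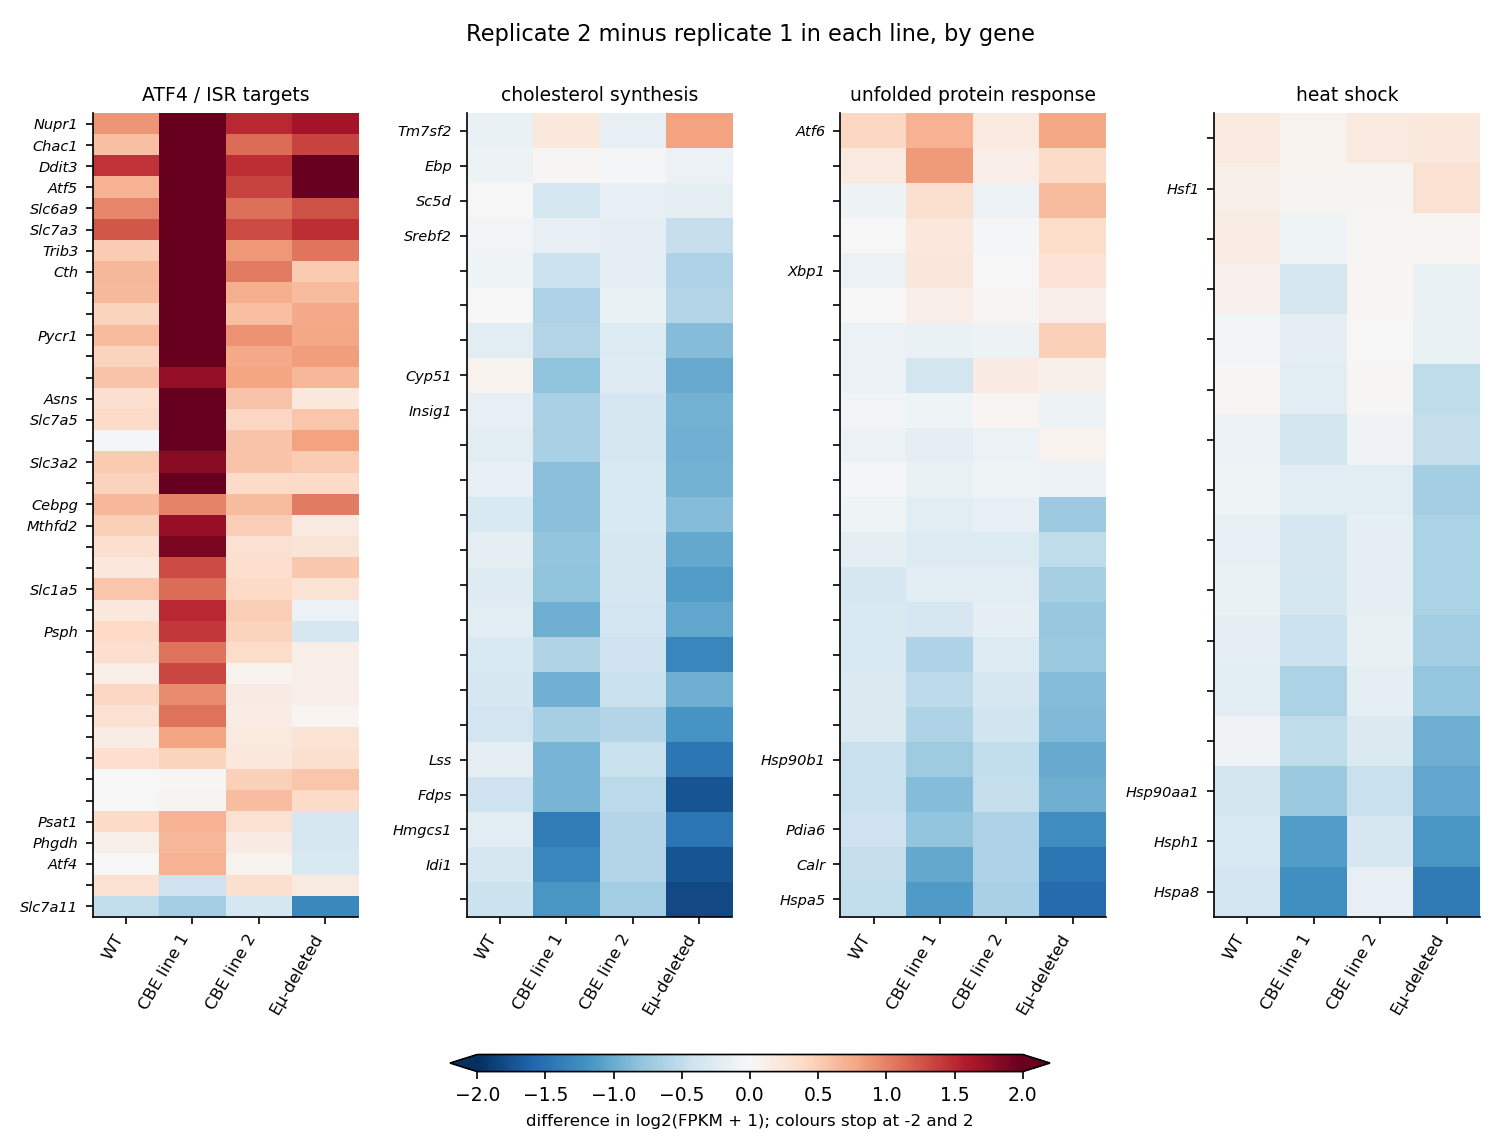
Replicate 2 minus replicate 1 in log2(FPKM + 1) for measured genes of 4 lists (rows, ordered by mean difference, with names only for genes in the text) in the 4 lines (columns); red is higher and blue lower in replicate 2, and colours stop at -2 and 2. CBE line 1 holds the darkest red of the stress response list, and the Eµ-deleted line the darkest blue of the other lists.

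Growth factor response genes were higher in part. Of 21 measured immediate early genes, 9 were higher and 1 lower in replicate 2 of all 4 lines (median 0.29, or 0.15 without the expression filter). Egr1, a zinc finger factor induced by ERK, was at 4.79 against 21.4 FPKM for WT, 8.45 against 21.2 for CBE line 1, 5.34 against 12.1 for CBE line 2, and 14.3 against 50.9 for Eµ-deleted cells. It was higher by 1.04 or more in each line (mean 1.5, SE 0.16, limma adjusted p = 0.0765), and 1.34 to 1.65 with 1 pair left out. Ier2, another early response gene, was at 51.9 against 93.0 FPKM for WT, 36.4 against 76.3 for CBE line 1, 43.0 against 67.9 for CBE line 2, and 65.6 against 118 for Eµ-deleted cells. Its second libraries were above all first ones (mean 0.84, SE 0.074). Junb differed by 0.54 in the same direction, but Fos, at 5.94 FPKM or less, was of mixed sign (mean -0.33, or -0.01 without the Eµ-deleted pair; limma adjusted p = 0.384), and Dusp1 was lower in each line (-0.32).

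The ERK feedback list holds ERK-induced genes, among them phosphatases and Sprouty genes that restrain ERK, and also ETS factors. Of 12 measured, 8 were higher and 0 lower in all 4 lines (median 0.25). Dusp6, an ERK phosphatase, was at 54.6 against 72.8 FPKM for WT, 55.8 against 80.1 for CBE line 1, 69.6 against 92.8 for CBE line 2, and 74.8 against 108 for Eµ-deleted cells. The 4 differences lay between 0.41 and 0.52, with little spread among the lines (mean 0.46, SE 0.052, limma adjusted p = 0.0765). Etv4, an ETS factor, differed by 0.41 and the Sprouty gene Spry4 by 0.33.

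Secreted factors gave a mixed picture. Of 15 measured growth factor and cytokine genes of 47 listed, 7 were higher and 2 lower in all 4 lines, with a median of 0.19 that was 0.08 in TPM and 0.0 without the expression filter. Vegfa, an angiogenic growth factor that ATF4 and hypoxia induce, was at 46.2 against 66.1 FPKM for WT, 33.5 against 106 for CBE line 1, 48.1 against 70 for CBE line 2, and 77.0 against 115 for Eµ-deleted cells. Its difference was 1.63 in CBE line 1 and 0.51 to 0.57 elsewhere (mean 0.81, SE 0.20, limma adjusted p = 0.0782; 0.54 without CBE line 1). Flt3l, a ligand for lymphoid progenitors, differed by 1.5 for CBE line 1 and 1.64 for Eµ-deleted cells, and by 0.08 in WT and 0.43 in CBE line 2. Tnf had the same shape (2.75, 1.59, 0.15 and 0.50, in that order; mean 1.25, limma adjusted p = 0.112). Csf1, the macrophage growth factor, was lower in each line (-0.26, limma adjusted p = 0.0929).

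IL-7 and STAT5 genes, which carry the survival signal of pro-B cells, had 7 of 20 higher and 3 lower in all 4 lines. Over all genes these shares were 26.1% and 19.1%. The list's median was 0.19, or 0.09 without CBE line 1, and -0.07 in WT. Pim1, a survival kinase, was at 113 against 137 FPKM for WT, 160 against 261 for CBE line 1, 125 against 180 for CBE line 2, and 220 against 316 for Eµ-deleted cells (mean 0.50, SE 0.078, limma adjusted p = 0.0765). Bcl2, which blocks cell death, differed by 0.43 at the same adjusted p. Socs1, a feedback inhibitor of cytokine signalling, differed by 1.14 (limma adjusted p = 0.0836), with 2.15 in CBE line 1 and 0.37 in WT. The cyclin gene Ccnd3 was lower in each line, at 654 against 468 FPKM in WT (mean -0.40, limma adjusted p = 0.081). Other STAT5 targets were not shared: Cish was lower by 0.86 in WT and higher in the other lines, with a mean of 0.30 that was -0.01 without CBE line 1. The receptor gene Il7r was lower in WT and both CBE lines and 0.04 higher in the Eµ-deleted line (mean -0.53, or -0.30 without CBE line 1; limma adjusted p = 0.122).

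Genes of resting cells were higher in part. In the FOXO and quiescence list, 8 of 21 were higher and 1 lower in all 4 lines, beside 26.1% and 19.1% of all genes. The other 12 were of mixed sign, among them Foxo1, Btg1, Klf2 and Pik3ip1. The list's median was 0.17, or 0.05 without the Eµ-deleted pair, 0.26 without WT and 0.11 after quantile normalization. Txnip (mm9 chr3:96361880-96365780), which limits glucose uptake, was at 48.8 against 75.4 FPKM for WT, 53.4 against 147 for CBE line 1, 64.6 against 110 for CBE line 2, and 60.1 against 139 for Eµ-deleted cells. All second libraries were above all first ones (mean 1.00, SE 0.14, limma adjusted p = 0.0765). The cell cycle inhibitor gene Cdkn1b differed by 0.48, the cyclin gene Ccng2 by 0.55, and Tsc22d3, a glucocorticoid- and FOXO-induced gene also called GILZ, by 0.83 (SE 0.11), each at the lowest adjusted p. Among p53 targets, 6 of 18 were higher, 2 lower and 10 of mixed sign, beside 26.1% higher and 19.1% lower of all genes. Their median was 0.20, or 0.09 without the Eµ-deleted pair. The higher ones included the cell death gene Bbc3 (mean 1.25, SE 0.26), which CHOP can also induce, and the cell cycle inhibitor gene Cdkn1a (0.55, SE 0.12). Gtse1 was lower in each line (-0.26, limma adjusted p = 0.0765), and Mdm2 and Bax were of mixed sign.

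Proliferation genes lay lower in part. Of 24 genes of G2 and M phase, 15 were lower and 0 higher in replicate 2 of all 4 lines (median -0.21). Of 28 S phase genes, 14 were lower, 1 higher and 13 of mixed sign (median -0.17, but -0.01 in WT). Cenpa, the centromeric histone H3 variant, was at 151 against 107 FPKM for WT, 153 against 114 for CBE line 1, 135 against 106 for CBE line 2, and 155 against 114 for Eµ-deleted cells. The first libraries were all above the second, with differences of -0.49 to -0.34 (mean -0.43, SE 0.052, limma adjusted p = 0.0765). Ccnb1, the mitotic cyclin, differed by -0.45, Mcm4, a subunit of the replicative helicase, by -0.40 and Rrm1, of ribonucleotide reductase, by -0.48. In the MYC and ribosome biogenesis list, 16 of 29 were lower and 1 higher. Its median was -0.24, or -0.15 without the Eµ-deleted pair, and -0.01 in WT. Tfrc, the transferrin receptor, differed by -0.75 and the nucleolar Ncl by -0.33, while Mycn was the member higher in each line (0.44) and Myc was higher in 3 lines and 0.04 lower in the Eµ-deleted line.

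Tubulins were examined after their values were seen. Of 12 measured, 10 were lower and 0 higher in replicate 2 of all 4 lines (median -0.54). Tubb4b was at 297 against 179 FPKM for WT, 388 against 240 for CBE line 1, 335 against 239 for CBE line 2, and 331 against 163 for Eµ-deleted cells. Every first library was above every second one (mean -0.73, SE 0.091, limma adjusted p = 0.0765). Tuba1a differed by -0.80 and Tuba4a by -0.74; tubulin paralogs are alike in sequence, so the split of reads among them is uncertain.

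Ribosomal protein and respiratory chain genes, both short and highly expressed, lay in opposite directions. Of 60 cytosolic ribosomal protein genes, 37 were higher and 2 lower in replicate 2 of all 4 lines, by little (median 0.10). Rpl24 was at 242 against 264 FPKM for WT, 190 against 247 for CBE line 1, 231 against 266 for CBE line 2, and 209 against 249 for Eµ-deleted cells (mean 0.24, SE 0.061, limma adjusted p = 0.0796). Of 42 nuclear-encoded respiratory chain genes, 29 were lower and 0 higher (median -0.19, or -0.11 without the Eµ-deleted pair and -0.09 after quantile normalization). Ndufb2, a complex I subunit, was at 129 against 108 FPKM for WT, 157 against 106 for CBE line 1, 139 against 107 for CBE line 2, and 115 against 67.6 for Eµ-deleted cells (mean -0.49, SE 0.089, limma adjusted p = 0.0765). The ribosomal list was lowest in CBE line 1 replicate 1 for 45 of 60 genes, and the respiratory list in Eµ-deleted replicate 2 for 37 of 42.

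**Figure D4:**
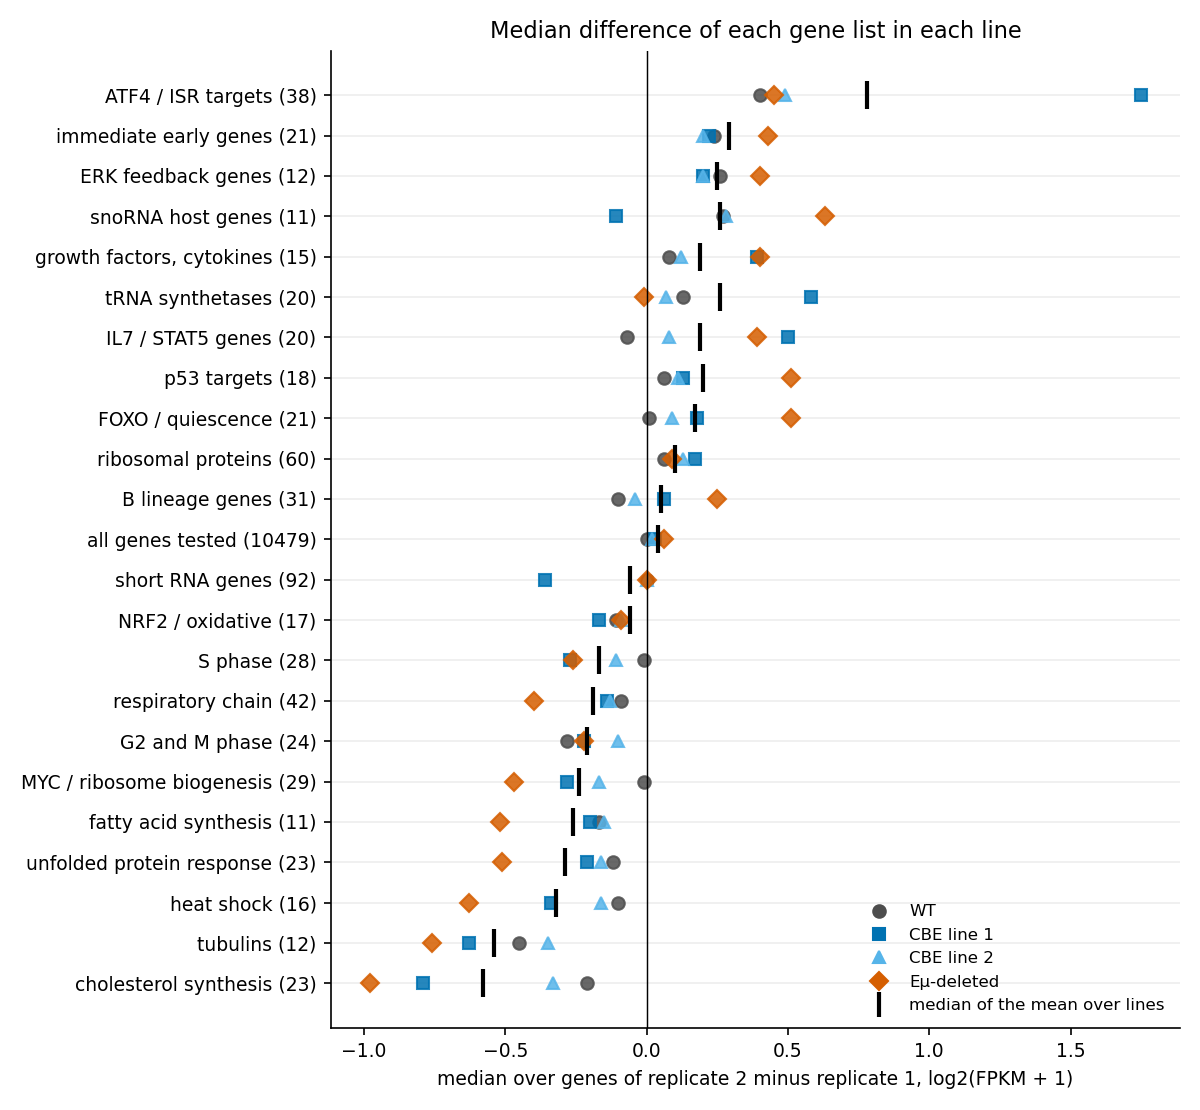
Median difference between replicates for 23 sets of genes (rows, number measured in brackets) in each of the 4 lines (symbols), with a black bar for the median of the mean over lines, in log2(FPKM + 1). The stress response list is at 0.40 to 0.49 in 3 lines and 1.75 in CBE line 1, and the cholesterol list runs from -0.98 to -0.21.

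Short RNA genes were few and thinly counted. Poly(A) libraries are not made to hold snoRNAs, which guide chemical changes of other RNAs, or microRNA hairpins, and their loci mostly lie inside introns of other genes. Of 92 short RNA genes tested, 54 had a value of 0 in at least 1 library, and the median implied count was 1.04 reads, against 1570 over all genes tested. In all 4 lines 2 were higher and 9 lower, against 26.1% and 19.1% of all genes. Snora78 was at 10.5 against 2.75 FPKM for WT, 11.6 against 4.48 for CBE line 1, 11.4 against 1.30 for CBE line 2, and 12 against 4.21 for Eµ-deleted cells. The second libraries were all below the first (mean -1.64, SE 0.20, limma adjusted p = 0.0765), but the values rest on 1 to 12 implied reads each. Snora74a rests on 0 to 5 reads (mean -1.41) and Snora16a on 2 to 27 (mean -1.44).

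The genes around these loci lay in both directions. Snora78 lies in the Snhg9 locus (-0.77, at a mean of 0.61 FPKM). Snora16a lies in the Snhg12 locus, which differed by 0.62, Snora74a in Snhg4 (0.01), and Snora3 (-0.99, 2 to 11 reads) in Rpl27a (0.10). Snora43 was higher (1.28, 1 to 10 reads), as was its holder Snhg7 (0.65). Reads of a short RNA and of its holder cannot be told apart at the same bases. The long host transcripts themselves had more reads, and 4 of 11 were higher and 1 lower in all 4 lines (median 0.26, or 0.13 without the Eµ-deleted pair). Snhg1 (mm9 chr19:8797977-8800816), the host of several box C/D snoRNAs, was at 449 against 833 FPKM for WT, 267 against 476 for CBE line 1, 252 against 518 for CBE line 2, and 353 against 1540 for Eµ-deleted cells. It was higher in each line by 0.83 or more (mean 1.22, SE 0.22, limma adjusted p = 0.0765). Gas5, a host transcript known to build up when growth stops, was higher in WT, CBE line 2 and the Eµ-deleted line and 0.11 lower in CBE line 1 (mean 0.24, or 0.12 without the Eµ-deleted pair; limma adjusted p = 0.195). Rmrp, the RNA of a mitochondrial and nucleolar RNase, was of mixed sign (mean 0.02, limma adjusted p = 0.947). The nuclear RNA Neat1, which builds paraspeckles, was higher in each line (mean 1.23, SE 0.28, limma adjusted p = 0.0769).

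Histone genes, most of whose mRNAs end in a stem-loop and not in a poly(A) tail, had 10 of 57 members higher and 13 lower (median -0.05, but 0.25 among those of mean FPKM 5 or more). Hist1h4m was lower by 0.65 to 1.57 in each line at 3.67 FPKM or less, and Hist1h4n was higher by 0.36 to 0.42. These entries lie at overlapping positions in mm9, so how their reads were split is uncertain, and Hist1h4m rests on 0 to 49 implied reads per library.

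B lineage identity genes were largely not members. Of 31, 4 were higher and 3 lower in all 4 lines (median 0.05). Cd24a, a surface marker of early B cells, was at 368 against 258 FPKM for WT, 777 against 482 for CBE line 1, 569 against 412 for CBE line 2, and 508 against 299 for Eµ-deleted cells (mean -0.61, SE 0.071, limma adjusted p = 0.0765). Dntt, the terminal transferase that adds bases at V(D)J joints, was at 239 against 112 FPKM for WT, 258 against 134 for CBE line 1, 90.2 against 58.0 for CBE line 2, and 56.8 against 48.1 for Eµ-deleted cells (mean -0.73, SE 0.14, limma adjusted p = 0.0765). Both were lower in the second library of each line, although the lines' ranges overlapped. Rag1 was of mixed sign, with -0.82 and -1.03 in the CBE lines and 0.32 in the Eµ-deleted line (limma adjusted p = 0.287). Irf8, a factor of B and myeloid fate, was higher in each line (mean 0.67, SE 0.15), and Pax5, a factor that fixes B cell identity, had a mean of 0.17 with mixed signs.

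Of the remaining lists, the interferon list had 4 of 18 higher and 3 lower, the lysosome and autophagy list 3 of 22 and 3, the hypoxia and glycolysis list 4 of 28 and 5, the metallothionein and zinc list 1 of 8 and 1, and the mitochondrial stress list 3 of 10 and 3. In the NF-kB list 5 of 14 were higher and 0 lower (median 0.14), with Relb, a subunit, at 0.66 and Nfkbia, the inhibitor, at 0.24, both in each line. Mt1 was listed at 0 in both WT libraries and reached 139 FPKM in the Eµ-deleted line, with a mean replicate difference of 0.11. Of 13 housekeeping genes, 7 were lower and 1 higher (median -0.17, or -0.06 after quantile normalization and -0.08 without the Eµ-deleted pair). Among them Ppia was lower by 0.14 to 0.75 and Polr2a by 0.19 to 0.54, while Rplp0 was higher by 0.02 to 0.07.

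The members also differed by level and length. In the quintile of genes with the highest mean FPKM, 38.8% were lower and 16.7% higher in all 4 lines, with a median difference of -0.07, whereas in the lowest quintile 7.73% were lower and 24.7% higher. The quintile with the shortest transcripts had 20.5% higher and 25.2% lower, and the longest quintile 28.6% and 13.2%. Shares by GC content were flatter, from 24.2 to 28.9% higher and 14.6 to 20.6% lower. Across genes, Spearman's rho with the mean difference was -0.23 for mean FPKM, 0.10 for length and -0.02 for GC content, given as descriptions. Zinc finger genes named Zfp were examined after their values were seen: 138 of 267 were higher and 6 lower in all 4 lines (median 0.13, or 0.06 after quantile normalization and 0.07 with a pseudocount of 5). Zfp397 was at 11.1 against 16.7 FPKM for WT, 9.52 against 14.4 for CBE line 1, 6.97 against 10.1 for CBE line 2, and 6.62 against 11.4 for Eµ-deleted cells (mean 0.57, SE 0.061, limma adjusted p = 0.0765).

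**Figure D5:**
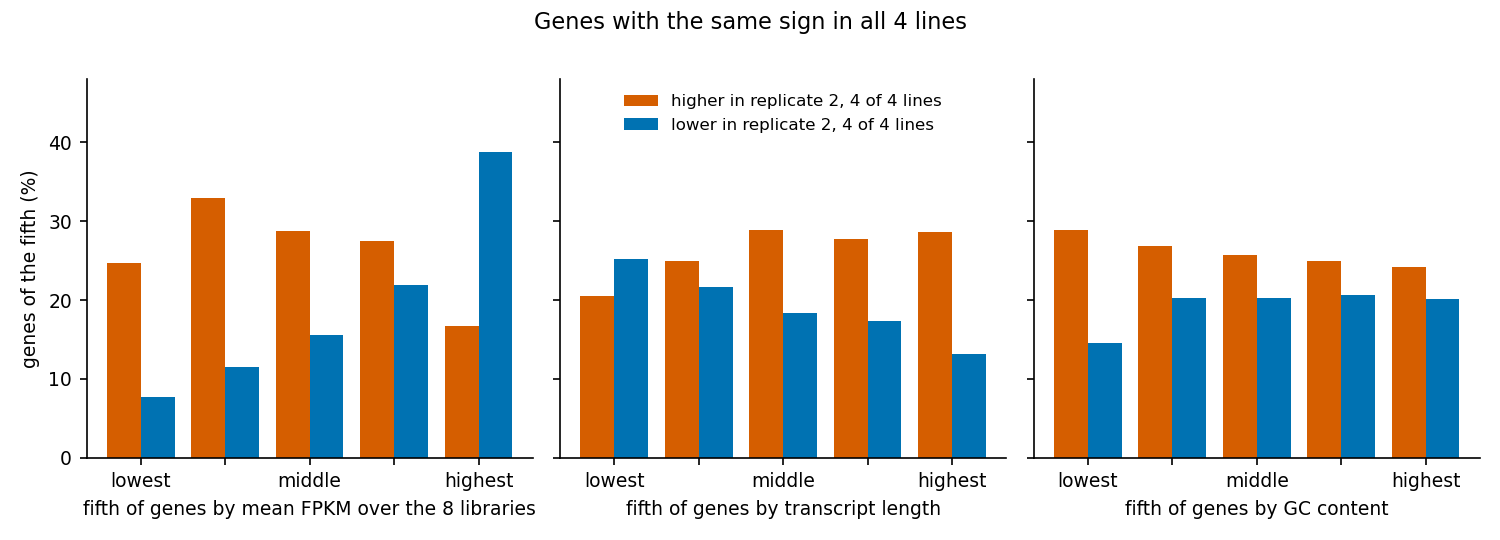
Percent of genes that were higher (orange) or lower (blue) in replicate 2 of all 4 lines, in quintiles of the tested genes by mean FPKM, transcript length and GC content. The lower share goes from 7.73% in the quintile with the lowest FPKM to 38.8% in the highest.

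The remaining genes at the lowest p were of varied function. Higher in all 4 lines were Tmem129, an ER ubiquitin ligase (mean 0.47), Parp11, a mono-ADP-ribosyltransferase (0.43), Ttc9c (0.42) and Tmem128 (0.38). Parp11 was at 6.98 against 9.46 FPKM for WT, 6.39 against 9.17 for CBE line 1, 6 against 8.27 for CBE line 2, and 6.11 against 8.83 for Eµ-deleted cells, and its 4 differences lay between 0.39 and 0.47. Wdr6, a WD repeat protein gene, was lower in all 4 lines, at 29.7 against 22.1 FPKM for WT, 27.2 against 17.2 for CBE line 1, 28.3 against 20.6 for CBE line 2, and 27.9 against 17.9 for Eµ-deleted cells. Its first libraries were all above its second ones (mean -0.52, SE 0.062, limma adjusted p = 0.0765).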

How the data were processed

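The libraries are stranded poly(A) RNA-seq, per the labels' protocols. TopHat, Cufflinks and the build mm9 are named in the submitters' processing notes without versions. The authors deposited FPKM with a lower bound, an upper bound and a status per gene, per the file headers, so no count test was run. Depth is known only from the intervals (taken as 2 SD of a count on each side), which imply 31.3 to 49.5 M reads per library. These are not read counts, since some intervals are wider than counting alone would give. Gapdh, at 359 to 652 FPKM, implied 2122 to 2256 reads per library, and Aars, at 49.8 to 113 FPKM, implied 12835 to 27450. Strand use in counting is not stated. FPKM of 277 symbols at several loci were summed, and 21 of 23929 symbols were left out for their status.

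The 10479 genes that reached 1 FPKM in 2 libraries were tested on log2(FPKM + 1), which understates changes of low genes. The test was limma 3.58.1 (R 4.3.3) with terms for line and replicate number, a trend, Benjamini-Hochberg adjustment over all genes (threshold 0.05), and 3 residual plus 3.13 prior degrees of freedom. It was tested on simulated data. Libraries of a line are paired as the same cell line, and the line differences correlated at 0.28 to 0.50.

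Members and the 35 lists were chosen with earlier results of these data known, and 2 lists (tubulins, Zfp genes) were added after seeing values. Named were the 12 lowest p in each direction with the same sign in 4 lines, up to 4 of lowest p per list, short RNAs of highest FPKM, and fixed stress, growth and host genes. Other list members named, such as Nupr1, Atf5, Chac1, Hmgcs1 and Hspa8, were picked after their values were seen. A few genes are among those taken by the rule but are not reported here. Alternatives were pseudocounts of 0.1 and 5, other filters, scalings and limma priors, other statuses kept, no pairing, and each pair left out. Promoters (RefSeq, GRCm38.p6) and GENCODE transcript lengths were joined by symbol for 7860 and 10417 genes.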

Additional observations from a re-analysis of the deposited data

Results flagged for a closer look

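In 10 of 73 sets of 4 line differences examined (34 list medians and single genes), 1 line stood apart from the other lines by a gap, relative to the range, above Dixon's critical value for 4 values. Chance flags about 1 in 20 such sets. CBE line 1 stood apart in the median of the integrated stress response list (1.75), in that of the short RNA genes (-0.36, where the other lines were at 0), and in Asns (2.61), Trib3 (3.87) and Vegfa (1.63). The Eµ-deleted line stood apart in the medians of the fatty acid synthesis list (-0.52), the p53 target list (0.51), the respiratory chain list (-0.40), the nuclear lncRNA list (0.57) and the housekeeping list (-0.38). The difference between lines was not tested, since each line gives 1 difference.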

How the results depend on the processing

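No gene was called by limma at an adjusted p of 0.05 under any alternative that kept all 4 pairs. Leaving out 1 pair gave 0 to 1 genes higher and 0 to 2 lower: Snora5c (-3.1, adjusted p = 0.0108) without CBE line 1, and Mir142b (1.53, 0.0106), Mir20a (-2.43, 0.00906) and Mir697 (-2.35, 0.00906) without CBE line 2, all short RNA genes of few reads. At an adjusted p under 0.10 there were 988 higher and 759 lower, and that count was 0 without the low value filter. Without the replicate block, with the libraries of a line not paired, 0 genes were called and 1021 had an unadjusted p under 0.05. Of 2404 values of 162 named genes under the alternatives, 2391 kept their direction; 13 values of 9 genes reversed. Without CBE line 1 these were Atf4 (-0.07; up to 0.26 without the Eµ-deleted pair), Cish (-0.01; up to 0.68 without WT), Mir1892 (0.94; down to -4.5 without CBE line 2), Mir682 (-0.01; up to 0.17), Mir684-1 (0.06; down to -0.66), Mir703 (0.02; down to -0.17) and Rmrp (-0.24; up to 0.26). After quantile normalization they were Car2 (0.04), Mir546 (0.09), Mir682 (-0.0) and Rmrp (-0.07), and without WT Mir546 (0.1; down to -0.17) and Rmrp (-0.02). The cause was not tested. Short RNA values rest on a median of 1.04 implied reads, which limits them.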
